A study of Homo sapiens with 20 samples.

Results

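ND5 and ND6 are adjacent protein-coding genes of the human mitochondrial genome, read from opposite strands. Their positions were taken by coordinate. ND5 took positions 12337 to 14148 of the mitochondrial chromosome and ND6 took positions 14149 to 14673 (GRCh38, RefSeq gene bounds). That gave 1812 positions in ND5 and 525 in ND6, together 2337 of the 16570 positions listed for each library. Neither gene has introns, and all of these positions lie in coding sequence as annotated.

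Both genes encode membrane subunits of complex I, the respiratory chain enzyme that oxidises NADH and pumps protons. ND5 belongs to the proton-pumping antiporter-like subunits and ND6 sits beside the membrane path that links them to the quinone site. The mitochondrial genome is transcribed from both strands as long precursors that are cut into mRNAs, tRNAs and rRNAs. ND5 lies on the heavy-strand precursor with the other mRNAs, whereas ND6 is the only mRNA of the light-strand precursor. RNA that continues downstream from ND5 runs opposite to ND6, so the boundary is covered by RNA of both senses. Pseudouridine is an isomer of uridine made by pseudouridine synthases, and the carbodiimide CMC marks it with an adduct that disturbs reverse transcription.

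The cells were K562, an established human chronic myelogenous leukaemia line. Mitochondria were isolated by fractionation, and the RNA was treated with 0.5 M CMC and made into stranded libraries. The 4 groups compared were wild-type cells with a non-targeting sgRNA (control, 4 libraries), NME6 knockout cells (4), RPUSD4 knockdown cells (3) and NME6 knockout cells carrying a wild-type NME6 cDNA (rescued, 3). RPUSD4 is a pseudouridine synthase of mitochondria and NME6 belongs to the nucleoside diphosphate kinases of mitochondria. Whether a line was 1 clone, and whether replicates were separate cultures, is not stated in the labels, so the p-values speak for the spread among these libraries alone, which may be technical. The 6 untreated samples (2 each for control and NME6 knockout, 1 each for the other groups) enter only through the subtraction. The labels name no batch. The rescued samples and their untreated one were registered in a separate block from all others. Any difference tied to that cannot be told apart from the rescue. Only mitochondrial positions were read, so the loss of NME6 or RPUSD4 and the identity of the cells were not checked by transcripts.

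Each value is a signed score per position, CMC minus untreated, read here as percentage points of altered reads, a unit inferred from the values. It is no measure of RNA amount. The read depth is unknown. A listed 0 may stand for a position that no read covered. The deposited scores do not separate strands, so at ND6 positions the ND6 mRNA and RNA of the opposite strand cannot be told apart, and the same holds for ND5 with the light-strand precursor. Reference bases were not used here, so a high position need not be a uridine. In all 18 pairs of libraries from one group, identical negative values recurred, and in none of 73 pairs from different groups. The libraries of a group therefore appear to share 1 untreated profile, and its error is missing from the spread between replicates. Replicate 1 of control and of NME6 knockout stood apart from their groups, with low means and, in control, many zeros, and results that rest on them are given with and without them.

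The mean score over all ND5 positions was lowest in rescued cells and alike in the other 3 groups. In control libraries 1 to 4 it was 0.0898, 0.153, 0.160 and 0.154 points. In NME6 knockout libraries it was 0.0987, 0.167, 0.163 and 0.171 points. These groups covered nearly the same range, each with replicate 1 well below its companions. The RPUSD4 knockdown libraries read 0.172, 0.118 and 0.124 points. The rescued libraries read 0.0873, 0.0886 and 0.0600 points, the 3 lowest values of all 14 libraries. The group means, from high to low, were 0.150 ± 0.0344 (SD, n = 4) in NME6 knockout, 0.139 ± 0.0330 (n = 4) in control, 0.138 ± 0.0296 (n = 3) in RPUSD4 knockdown and 0.0786 ± 0.0162 points (n = 3) in rescued cells. The first 3 of these did not differ beyond their spread. Among the 13 mRNA genes, ranked from the highest mean score, ND5 stood 8 in control, 5 in NME6 knockout, 9 in RPUSD4 knockdown and 12 in rescued cells.

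The ND6 mean had the same highest and lowest groups but a narrower range between them. Control libraries read 0.108, 0.162, 0.169 and 0.164 points, and NME6 knockout libraries 0.123, 0.190, 0.183 and 0.180 points. RPUSD4 knockdown libraries read 0.153, 0.168 and 0.141 points, and rescued libraries 0.121, 0.110 and 0.106 points. All 3 rescued libraries lay below all 4 knockout and all 3 knockdown libraries, but control replicate 1 fell among them. The group means were 0.169 ± 0.0306 (SD, n = 4) in NME6 knockout, 0.154 ± 0.0135 (n = 3) in RPUSD4 knockdown, 0.151 ± 0.029 (n = 4) in control and 0.112 ± 0.00757 points (n = 3) in rescued cells. Neighbouring groups among the first 3 overlapped. Among the 13 mRNA genes ND6 ranked 3 in control, 1 in NME6 knockout, 5 in RPUSD4 knockdown and 5 in rescued cells.

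**Figure D1:**
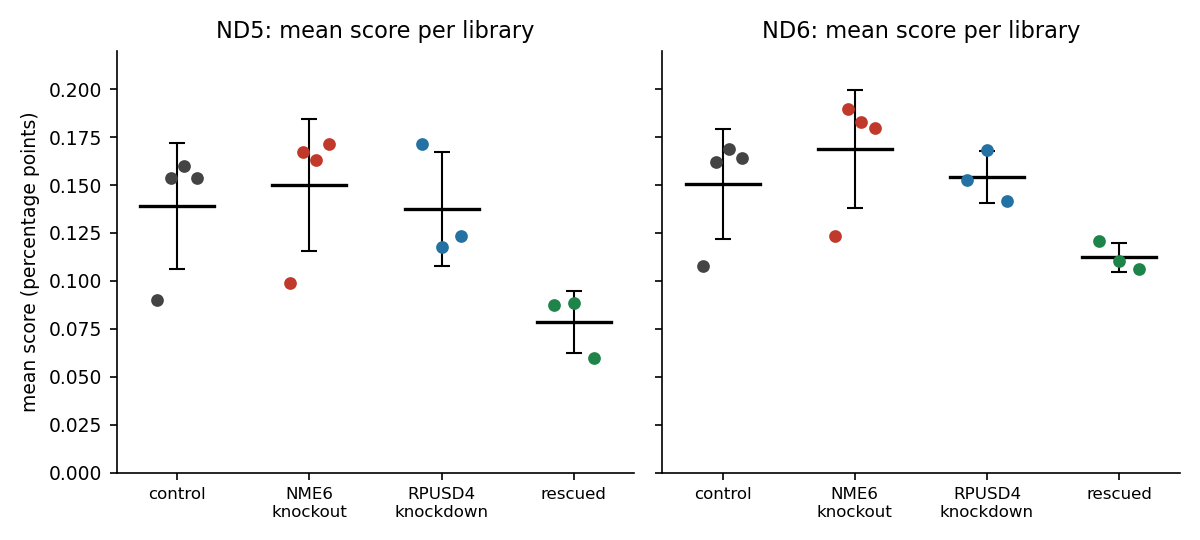
Mean score in percentage points over all positions of ND5 (left) and ND6 (right), with a point per library and a bar for the mean ± SD of each group (n = 4, 4, 3 and 3). The rescued libraries are the 3 lowest for ND5, at 0.0600 to 0.0886 points, while for ND6 control replicate 1, at 0.108 points, falls among them.

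Set side by side in the same library, and per position so that length does not enter, ND6 had the higher mean score in 13 of 14 libraries. The exception was RPUSD4 knockdown replicate 1. ND5 averaged 0.129 and ND6 0.148 points, and the difference of ND5 minus ND6 was -0.0195 points (SD 0.0172, n = 14 libraries, range -0.0506 to 0.0189, exact two-sided sign-flip permutation p = 0.00159). The sign-flip tests between these genes take the libraries as independent, although those of a group appear to share 1 untreated profile. By group the difference was -0.0115 ± 0.00450 in control, -0.0189 ± 0.00729 in NME6 knockout, -0.0165 ± 0.0348 in RPUSD4 knockdown and -0.0338 ± 0.0124 points in rescued cells. The zeros moved with it. ND5 had the larger share of positions at exactly 0 in all 14 libraries, 34.7% against 26.9% on average (difference 7.89 percentage points, exact sign-flip permutation p = 0.000122, the smallest that 14 libraries allow). Over positions with a score other than 0 the gap was -0.00273 points, with ND5 higher in 8 libraries and ND6 in 6 (exact sign-flip permutation p = 0.716). The share of positions at 1 point or more also did not separate the genes, at -0.169 percentage points (exact sign-flip permutation p = 0.430). The single highest score of a library, by contrast, was larger in ND5 in 11 of 14 libraries, 2.48 against 1.65 points on average (difference 0.836, exact sign-flip permutation p = 0.00525), and ND5 has more positions to take it from.

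Zeros and high scores varied between groups in ways that the mean hides. In ND5 the share of positions at 0 was 47.9, 23.0, 24.3 and 23.3% in control and 60.2, 29.6, 39.2 and 42.7% in NME6 knockout. It was 36.0, 42.8 and 54.0% in RPUSD4 knockdown and 21.9, 19.8 and 21.7% in rescued cells. Rescued libraries thus had the fewest positions listed at 0, and replicate 1 of control and of knockout the most within their groups. The number of ND5 positions at 1 point or more was 6, 23, 14 and 18 in control, 32, 31, 42 and 46 in NME6 knockout, 37, 22 and 37 in RPUSD4 knockdown and 3, 3 and 2 in rescued cells. Every knockout library was above every control library in this count, and every rescued library was below both.

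In ND6 the share of positions at 0 was 38.1, 14.7, 16.0 and 13.3% in control, 43.6, 24.2, 31.2 and 35.2% in NME6 knockout, 32.6, 34.3 and 47.0% in RPUSD4 knockdown and 16.8, 13.1 and 15.8% in rescued cells, where it overlapped control. Its number of positions at 1 point or more was 4, 0, 3 and 5 in control, 10, 10, 16 and 14 in NME6 knockout, 3, 14 and 16 in RPUSD4 knockdown and 3, 3 and 3 in rescued cells. Knockout libraries again lay above all control libraries, while rescued libraries overlapped control. Over the 9004 positions of the other 11 mRNAs the share at 1 point or more was 0.666 to 1.73% in control, 1.21 to 2.64% in NME6 knockout, 2.47 to 2.89% in RPUSD4 knockdown and 0.322 to 0.589% in rescued cells. There the knockout overlapped control and the knockdown had the highest mean share, 2.68%. The matching shares were 0.331 to 1.27, 1.71 to 2.54, 1.21 to 2.04 and 0.110 to 0.166% for ND5. Depth is unknown, so the part of coverage in these counts was not tested.

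**Figure D2:**
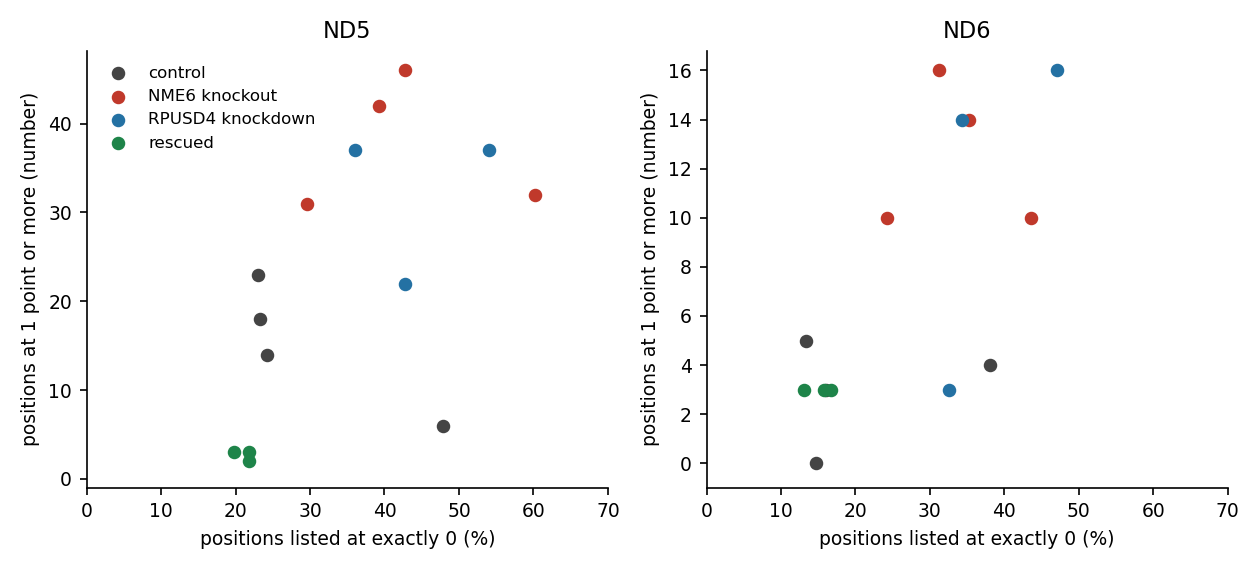
For each library, the share of positions listed at exactly 0 (horizontal axis, %) and the number of positions at 1 percentage point or more (vertical axis), for ND5 (left) and ND6 (right), coloured by group. Rescued libraries sit at the lower left of the ND5 panel, with 2 or 3 high positions and 19.8 to 21.9% zeros, and NME6 knockout libraries sit higher, with 31 to 46 high positions.

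Along ND5 the score showed no single domain. Counted from the 5′ end in stretches of 604 bases, control cells averaged 0.123, 0.150 and 0.144 points, and NME6 knockout cells 0.139, 0.154 and 0.157 points. RPUSD4 knockdown cells averaged 0.114, 0.149 and 0.150 points and rescued cells 0.0814, 0.0791 and 0.0754 points. Rescued cells were lowest in each stretch. In windows of 75 bases the highest ND5 value in control, NME6 knockout and RPUSD4 knockdown cells lay in the same window, centred at -274.5 bases from the ND6 boundary, with 0.249, 0.267 and 0.238 points. In rescued cells the highest ND5 window was centred at -49.5 bases, with 0.127 points.

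Along ND6 the groups separated in some stretches and not in others. In the 175 bases nearest its 5′ end (positions 14499 to 14673) the means were 0.151 in control, 0.195 in NME6 knockout, 0.159 in RPUSD4 knockdown and 0.158 ± 0.0160 points in rescued cells. Rescued cells there stood at the control level. In the middle 175 bases (14324 to 14498) they were 0.144, 0.153, 0.144 and 0.0691 points in the same order, and in the 175 bases nearest the 3′ end (14149 to 14323) 0.157, 0.158, 0.159 and 0.110 points. Against control, the lower ND6 mean of rescued cells therefore came from the middle and 3′ stretches, whereas against the knockout the 5′ stretch was lower as well. These splits were described and not tested. At the outer borders the score did not change sharply. The last TRNL2 base before ND5 averaged 0.546 and the first ND5 base 0.563 points over the 14 libraries. At the shared border the last ND5 base read 0.0292 and the adjoining ND6 base 0.0894 points.

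**Figure D3:**
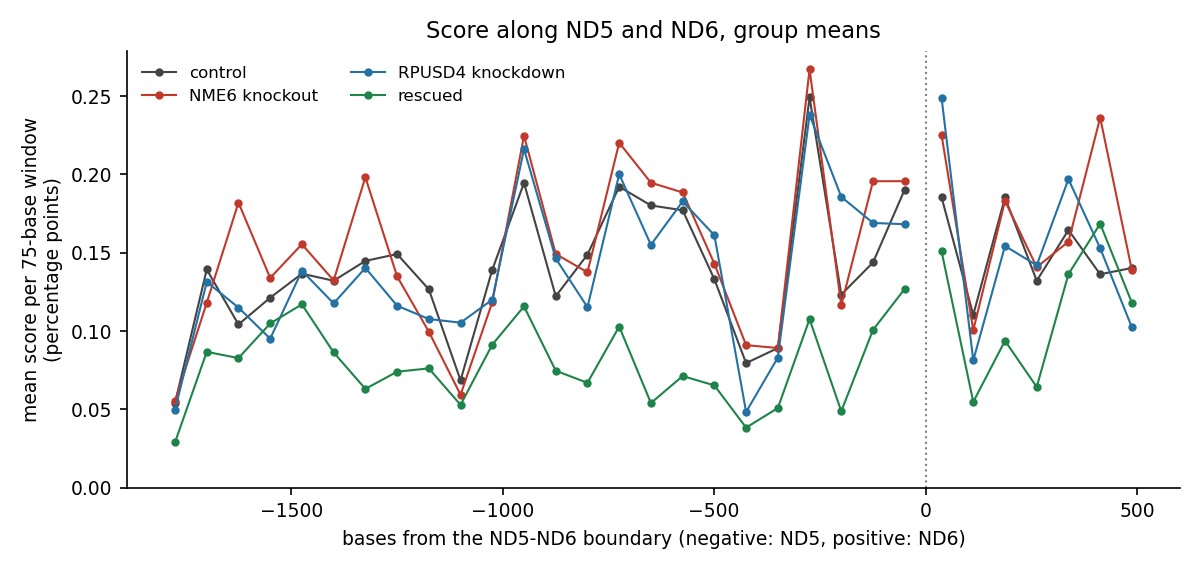
Group mean of the score in percentage points per window of 75 bases, against the distance in bases from the boundary of ND5 (negative) and ND6 (positive), where the 5′ end of ND6 is at the far right; a short remainder at the end of ND5 is not drawn. Control, NME6 knockout and RPUSD4 knockdown share a high window centred at -274.5 bases, at 0.238 to 0.267 points, and the rescued line lies lowest over most of ND5.

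High positions were scattered. With a mean of at least 0.5 points over the 14 libraries there were 67 positions in ND5 (3.70%) and 27 in ND6 (5.14%). Of these, 35 in ND5 and 15 in ND6 adjoined another such position, and the longest runs were 4 and 5 bases. A mean of at least 1 point, the level set for the test across positions, was reached by 7 positions of ND5 and 1 of ND6, so 8 of 2337 positions were tested. In the whole chromosome 149 positions reached it. Positions 12418, 12784, 13898 and 14012 reached it only with the knockout libraries counted: over the other 10 libraries they averaged 0.773, 0.913, 0.947 and 0.901 points. A high knockout value is thus part of how these 4 were picked, and their differences from the knockout are descriptions. The lowest tested ND5 position averaged 1.04 points and the next one below it 0.993 points. In ND6 the single tested position averaged 1.48 and the next 0.971 points. No sequence is shown, because the files analysed hold none for the mitochondrial chromosome. Base numbers below count from the 5′ end of each gene, which for ND6 is its end of higher coordinate.

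The highest ND5 position was 14075 (base 1739, the middle base of codon 580), which read 1.32, 1.85, 2.14 and 2.43 points in control and 0.684, 3.15, 2.40 and 3.82 points in NME6 knockout. It read 2.39, 2.11 and 3.03 points in RPUSD4 knockdown and 1.51, 1.42 and 1.19 points in rescued cells. The knockout libraries spanned the values of every other group, and the rescued libraries lay below the knockdown. It was the highest ND5 position in 7 libraries, among them all 4 control libraries and no rescued one. Its neighbour 14076 (base 1740, the same codon) averaged 1.13 points and followed it, with 1.01, 0.964, 1.14 and 0.903 points in control, 0.306, 2.06, 1.17 and 2.07 in NME6 knockout, 0.861, 1.55 and 1.62 in RPUSD4 knockdown and 0.647, 0.840 and 0.706 in rescued cells. NME6 knockout replicate 1 was the lowest of all 14 libraries at both bases.

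Position 13231 (base 895, the first base of codon 299) was next, and it was the highest ND5 position in all 3 rescued libraries. It read 0.449, 1.18, 1.34 and 2.33 points in control and 1.55, 2.005, 2.46 and 2.90 in NME6 knockout. RPUSD4 knockdown libraries read 1.96, 2.96 and 1.52 points and rescued libraries 1.54, 1.48 and 1.55 points. The rescued values were nearly equal (1.52 ± 0.0350, SD, n = 3) and lay inside the control range. Position 12418 (base 82, codon 28) was the most uneven in NME6 knockout, with 3.42, 1.25, 0.550 and 2.73 points. Control read 0.387, 1.49, 1.51 and 0.841 points there, RPUSD4 knockdown 1.18, 0.468 and 0.729, and rescued cells 0.333, 0.281 and 0.516. All rescued libraries were thus below all control and knockout libraries except that control replicate 1 fell among them.

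Position 14012 (base 1676, the middle base of codon 559) had tight groups. Control libraries read 0.747, 0.845, 0.753 and 0.978 points (mean 0.831 ± 0.108, SD, n = 4), and NME6 knockout libraries 1.34, 1.20, 1.57 and 1.80 points (1.48 ± 0.260, n = 4). RPUSD4 knockdown libraries read 0.930, 1.09 and 1.56 points (1.19 ± 0.330, n = 3) and rescued libraries 0.657, 0.867 and 0.581 points (0.702 ± 0.148, n = 3). All knockout libraries lay above all control and all rescued libraries. The neighbours 13897 and 13898 (bases 1561 and 1562, codon 521) lie in the window with the highest group means. Position 13898 read 0.858, 1.16, 0.996 and 0.788 points in control, 0.820, 1.63, 1.39 and 2.14 in NME6 knockout, 0.482, 2.77 and 1.06 in RPUSD4 knockdown and 0.385, 0.344 and 0.620 in rescued cells. The rescued libraries lay below all control and knockout libraries.

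Position 12784 (base 448, codon 150) read 0.315, 1.13, 1.40 and 1.47 points in control, 1.54, 1.48, 1.04 and 1.37 in NME6 knockout, 1.36, 0.692 and 0.848 in RPUSD4 knockdown and 0.928, 0.558 and 0.435 in rescued cells. The spread of control came from replicate 1, without which control and knockout covered about the same range. Below the level of the test, 13426 (base 1090), 13897 and 13510 (base 1174) completed the 10 highest ND5 positions, with group means in rescued cells of 0.556, 0.339 and 0.304 points against 1.43, 1.34 and 1.40 in NME6 knockout.

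In ND6, position 14504 (base 170, the middle base of codon 57) stood above the rest and was the highest ND6 position in 9 libraries, all 3 rescued ones included. It read 1.35, 0.9999, 1.06 and 0.736 points in control (mean 1.04 ± 0.251, SD, n = 4) and 2.20, 1.69, 1.95 and 1.07 in NME6 knockout (1.73 ± 0.487, n = 4). RPUSD4 knockdown libraries read 1.72, 1.13 and 2.17 points (1.67 ± 0.521, n = 3) and rescued libraries 1.71, 1.25 and 1.69 points (1.55 ± 0.257, n = 3). Control was the lowest group here and rescued cells stood near the knockout, opposite to the gene mean. It lies in the 5′ stretch of ND6, where the rescued mean was not below control.

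The next ND6 positions lie near the border with ND5. Neighbours 14178 and 14177 (bases 496 and 497, codon 166) averaged 1.03 ± 0.173 and 0.988 ± 0.112 points (SD, n = 3) in rescued cells. At 14178 control libraries read 0.366, 0.860, 0.846 and 1.07 points, NME6 knockout libraries 0.462, 1.39, 1.19 and 0.824, RPUSD4 knockdown libraries 0.948, 1.59 and 0.960 and rescued libraries 1.07, 1.18 and 0.843. The rescued libraries lay within the knockout range. Position 14191 (base 483), 13 bases away, read 0.321, 0.781, 0.762 and 1.05 points in control, 0.529, 1.65, 1.69 and 1.59 in NME6 knockout, 1.43, 0.641 and 1.502 in RPUSD4 knockdown and 0.497, 0.577 and 0.537 in rescued cells. Here 3 of 4 knockout libraries lay above all control and rescued libraries, and knockout replicate 1 did not. Position 14400 (base 274) was lowest in rescued cells, at 0.341 to 0.565 points, against 0.478 to 1.07 in control.

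**Figure D4:**
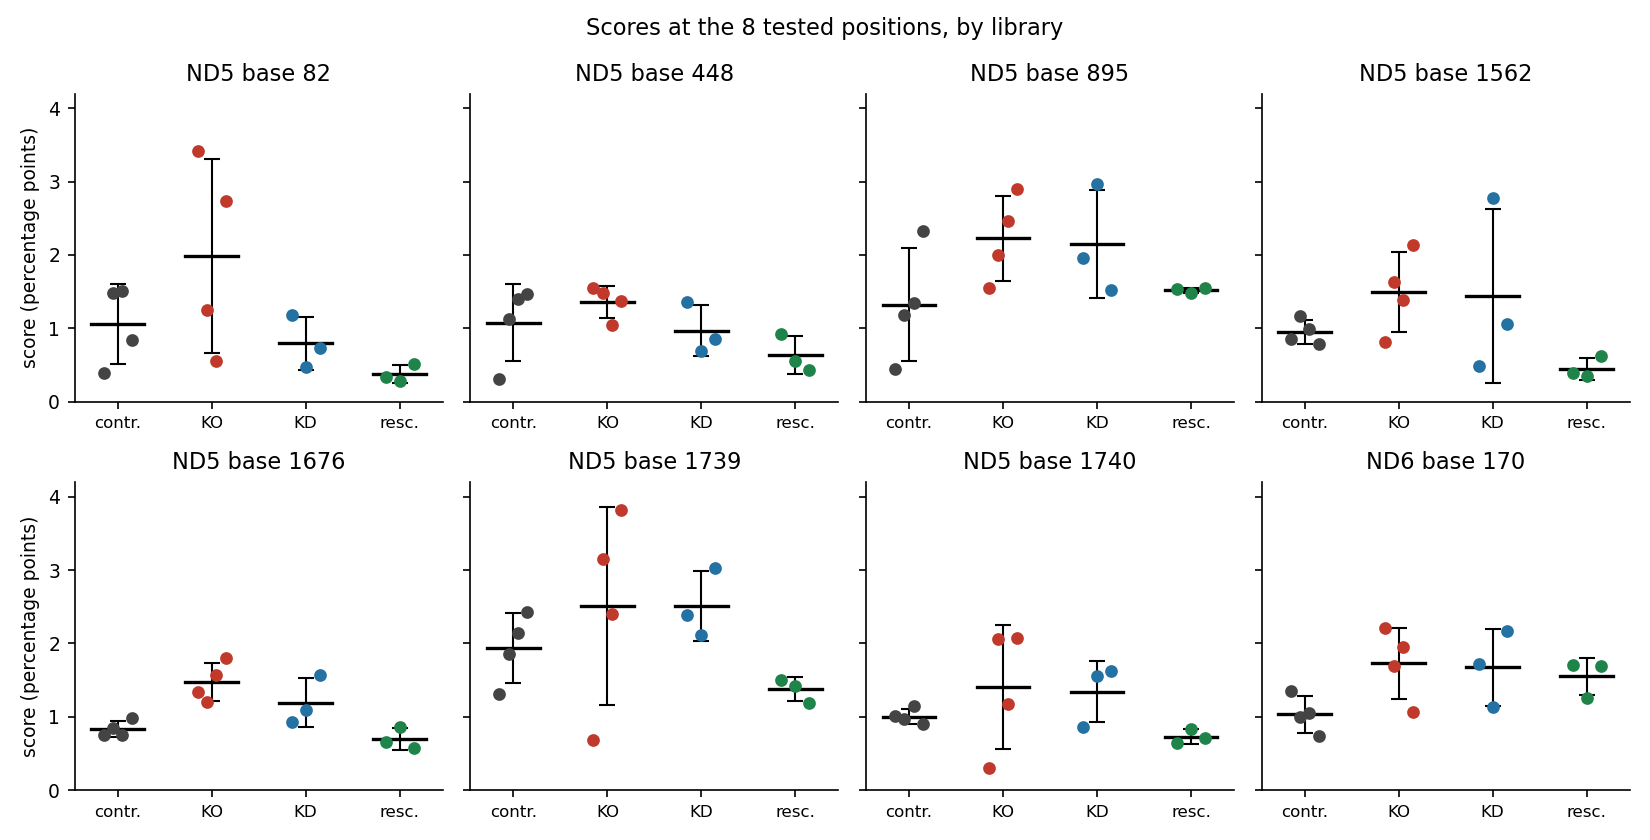
Scores in percentage points at the 8 tested positions, 7 in ND5 and 1 in ND6, with a point per library and bars for the mean ± SD of control (contr., n = 4), NME6 knockout (KO, n = 4), RPUSD4 knockdown (KD, n = 3) and rescued cells (resc., n = 3). At ND5 base 1676 all knockout libraries (1.20 to 1.80 points) lie above all control libraries (0.747 to 0.978), and at ND6 base 170 control has the lowest mean, 1.04 points.

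The comparison of rescued with NME6 knockout cells asked what returning NME6 changed. Both genes had lower mean scores in rescued cells, ND5 at 52.4% and ND6 at 66.6% of the knockout level, and the groups did not overlap for either. For ND5 the difference was -0.0713 points (SE 0.0230, 95% interval -0.123 to -0.0200, exact permutation p = 0.057, Benjamini-Hochberg adjusted over 10 gene tests 0.190). For ND6 it was -0.0564 points (SE 0.0183, 95% interval -0.0972 to -0.0157, exact permutation p = 0.057, adjusted 0.190). This p is the smallest that 4 against 3 libraries allow, so neither could pass. The SEs and intervals pool the spread of the 4 groups. Groups without overlap were found, in the lower direction, for ND5, ND6 and CYTB, 3 of the 13 mRNAs (23.1%). The other 11 mRNAs were also lower, at 56.0% (CYTB) to 94.5% (ND3) of the knockout level with a median of 74.8%. None of the 11 was proportionally lower than ND5, and 2 were lower than ND6. Rescued libraries differed from the knockout over much of the chromosome, and the part of this wider shift was not tested. After subtracting the mean over all other positions of the same library, the differences were -0.0448 points for ND5 and -0.0259 for ND6, again without overlap. Over positions other than 0 they were -0.163 and -0.120 points.

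At single positions, none of the 8 tested passed for rescued against knockout cells (limma, Benjamini-Hochberg over 149 positions, where 3.36% passed in either direction). An unadjusted p under 0.05 was found at 4 of them, beside 23 of all 149, in a set whose choice used the knockout values. Position 14012 came closest, at -0.77 points (SE 0.195, limma Benjamini-Hochberg adjusted p = 0.05004, just above the threshold of 0.05, exact permutation p = 0.057). It did pass without NME6 knockout replicate 1 (0.0461), without knockout replicate 2 (0.0273) or without RPUSD4 knockdown replicate 3 (0.0134), and over all alternatives its adjusted p ranged from 0.0106 to 0.672. With positions chosen by a mean of at least 0.5 points in control and RPUSD4 knockdown alone, 14012 did not pass (limma adjusted p = 0.208). Position 12418 differed by -1.61 points (SE 0.588, limma adjusted p = 0.165) and passed without knockout replicate 3 (0.0475), but without knockout replicate 1 or 4, which read 3.42 and 2.73 points, it no longer reached the level for testing. Chosen by control and RPUSD4 knockdown alone, it did not pass either (limma adjusted p = 0.317). Position 12784 differed by -0.72 points (SE 0.283, limma adjusted p = 0.209). With library weights 5 ND5 positions passed (12784, 13898, 14012, 14075 and 14076), where 28 of all 149 did. With replicate 1 of control and of knockout left out together, 4 positions of these genes passed, where 21 of all 175 did. They were 14012, 14075 and 14076 in ND5 and 14191 in ND6, which then reached the level for testing. Without knockout replicate 1 alone 2 passed (14012 and 14191), where 7 of all 156 did. Without control replicate 1 position 13510, which then reached that level, passed, where 7 of all 161 did. The level for testing still counted knockout values in each of these choices. At 14075, 14076 and 14191 knockout replicate 1 was the lowest of its group.

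To count directions without using the values compared, positions were also taken by a mean of at least 0.5 points over the libraries of the groups not compared, a choice made after seeing the data. For this comparison, which leaves control and RPUSD4 knockdown to choose, 77 of 94 ND5 and 19 of 25 ND6 positions were lower in rescued cells, beside 714 of 1008 in the chromosome. The median difference was -0.420 points in ND5 and -0.179 in ND6, against -0.169 over all. The groups did not overlap, rescued lower, at 37 ND5 and 6 ND6 positions, where 12.3% of all 1008 did so. None of these ND5 and ND6 positions passed by limma with Benjamini-Hochberg adjustment, where 0.298% of all did. An unadjusted limma p under 0.05 was found at 31 ND5 and 6 ND6 positions, beside 108 of all 1008. With a mean of at least 0.5 points over all 14 libraries 1 position passed, 13302 in ND5 (base 966), where 0.816% of all 858 did. It read 1.38 ± 0.349 points in the knockout (n = 4) and 0.205 ± 0.0711 in rescued cells (n = 3), a difference of -1.17 points (SE 0.240, limma Benjamini-Hochberg adjusted p = 0.0472). It was singled out after its values were seen, and its level was set with the knockout included. Among the other complex I mRNAs (ND1, ND2, ND3, ND4L and ND4), none of 24 tested positions passed, with 5 at an unadjusted p under 0.05 by limma. Of 9 tested positions in tRNA genes of the light-strand precursor none passed, and none had an unadjusted p under 0.05 by limma.

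Rescued cells were also set against control cells. ND5 was lower, at 56.5% of the control mean with no overlap, while ND6 stood at 74.6% and overlapped control. The ND5 difference was -0.0605 points (SE 0.0230, 95% interval -0.112 to -0.00919, exact permutation p = 0.057, the smallest possible, adjusted 0.190). The ND6 difference was -0.0382 points (SE 0.0183, 95% interval -0.0790 to 0.00256, exact permutation p = 0.171, adjusted 0.429). Without control replicate 1 the ND6 difference was -0.0524 points and the groups did not overlap (exact permutation p = 0.1, the smallest for 3 against 3, adjusted 0.250), and that of ND5 was -0.0769. After subtracting the mean over all other positions of the library, ND5 differed by -0.0358 points (exact permutation p = 0.057, the smallest possible, adjusted 0.190) and ND6 by -0.00997 (exact permutation p = 0.229, adjusted 0.381). ND5 and CYTB were the 2 mRNAs without overlap (15.4% of 13). All other 11 mRNAs were lower too, from 56.1% (CYTB) to 97.2% (ATP8) of control with a median of 72.6%. One of them, CYTB, was proportionally lower than ND5 and 6 were lower than ND6.

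Among the 8 tested positions the rescued mean was above control at 13231 in ND5 and 14504 in ND6. None passed, by limma with Benjamini-Hochberg adjustment, where 2.68% of the 149 did. None had an unadjusted limma p under 0.05, where 14 of the 149 did. The lowest p-values belonged to 12784 (-0.44 points, SE 0.283, limma adjusted p = 0.642), 14504 (0.52 points, SE 0.372, limma adjusted p = 0.754) and 12418 (-0.68 points, SE 0.588, limma adjusted p = 0.793). With positions taken by a mean of at least 0.5 points in the knockout and knockdown libraries, 82 of 91 ND5 and 20 of 31 ND6 positions were lower, beside 821 of 1082 in the chromosome. Non-overlap in the lower direction was found at 38 ND5 and 8 ND6 positions, against 14.7% of all 1082.

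**Figure D5:**
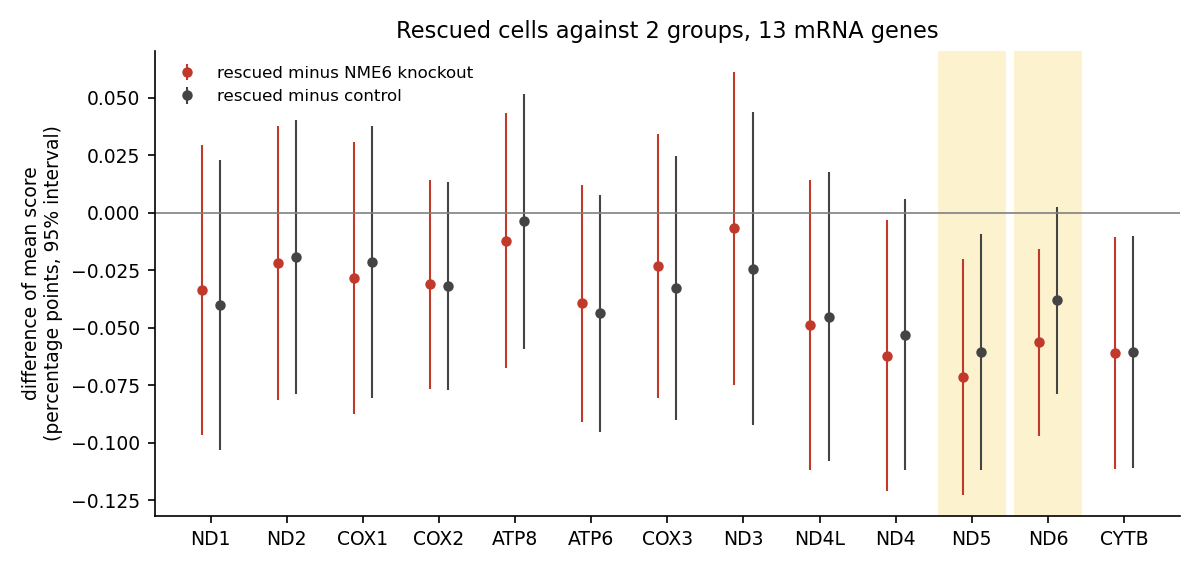
Difference of the mean score in percentage points for each of the 13 mRNA genes, rescued minus NME6 knockout and rescued minus control, with 95% intervals from the spread pooled over the 4 groups. All 13 differences lie below 0 in both comparisons, and ND5 (-0.0713 and -0.0605) and CYTB have intervals below 0 in both.

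NME6 knockout was set against control to ask what changes when the kinase is lost. The mean scores of both genes were slightly higher in the knockout, within the spread of the libraries. ND5 differed by 0.0108 points (108% of control, SE 0.0213, 95% interval -0.0366 to 0.0583, exact permutation p = 0.457, adjusted 0.735), and by -0.00559 points without control replicate 1. ND6 differed by 0.0182 points (112% of control, SE 0.0169, 95% interval -0.0195 to 0.0560, exact permutation p = 0.429, adjusted 0.735). Without control replicate 1 it differed by 0.00401 points. Without NME6 knockout replicate 1 the differences were 0.0279 points for ND5 and 0.0334 for ND6 (exact permutation p = 0.057 for each, the smallest possible, adjusted 0.167), over 1.5 times as large. With replicate 1 of both groups left out they were 0.0115 and 0.0192 points (exact permutation p = 0.1 for each, the smallest for 3 against 3, adjusted 0.143). Paired by replicate number, the knockout was higher in 4 of 4 pairs for each gene (exact sign-flip permutation p = 0.125, the smallest that 4 pairs allow, adjusted 0.500). These pairs were taken from the data and not the labels, so the count of pairs is a description. The other 11 mRNAs ran from 87.6% (ND3) to 107% (ATP8) of control with a median of 100.2%, so both ND5 and ND6 stood above all of them in this ratio. For none of the 13 mRNAs were the groups apart (0%). Over positions other than 0 the knockout means were higher without overlap, 0.237 to 0.299 against 0.172 to 0.211 points in ND5 (difference 0.0672, exact permutation p = 0.029, the smallest possible, adjusted 0.0816) and 0.219 to 0.277 against 0.174 to 0.201 in ND6 (difference 0.0645, exact permutation p = 0.029, adjusted 0.0816). The other 11 mRNAs together showed the same, at 0.259 to 0.295 in the knockout against 0.181 to 0.222 points in control. The knockout also had the larger share of zeros in each of the 4 same-numbered pairs in both genes, and the part of zeros in this was not tested.

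None of the 8 tested positions passed for the knockout against control (0% of 149 by limma with Benjamini-Hochberg adjustment). Position 14012 alone had an unadjusted limma p under 0.05, where 7 of all 149 did. It was higher by 0.65 points (178% of control, SE 0.180, limma adjusted p = 0.303, exact permutation p = 0.029) and had the second lowest p of the 149 positions. It reached the level for testing only with the knockout libraries counted, so these values are descriptions. Position 14504 differed by 0.69 points (SE 0.344, limma adjusted p = 0.768, exact permutation p = 0.057) and 13231 by 0.90 points (SE 0.501, limma adjusted p = 0.768). With positions taken by a mean of at least 0.5 points in the knockdown and rescued libraries, 27 of 47 ND5 and 16 of 22 ND6 positions were higher, beside 360 of 757. The median difference was 0.0496 points in ND5 and 0.185 in ND6, against 0 over all. The groups were apart, knockout higher, at 2 ND5 positions and no ND6 position, where 1.72% of all 757 were.

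For RPUSD4 knockdown, the question was what depends on this synthase in ND5 and ND6. The gene means over all positions were nearly equal. ND5 differed by -0.00152 points (SE 0.0230, 95% interval -0.0528 to 0.0498, exact permutation p = 0.914, adjusted 1) and ND6 by 0.00349 points (SE 0.0183, 95% interval -0.0373 to 0.0443, exact permutation p = 1, adjusted 1). Both signs turned in single omissions. The ND5 difference ran from -0.0185 points without knockdown replicate 1 to 0.00847 without knockdown replicate 2, and was -0.0180 without control replicate 1. That of ND6 ran from -0.0107 points without control replicate 1 to 0.00985 without knockdown replicate 3. The 95% intervals allow changes of either sign, so they do not show equal levels. Over positions other than 0 the ND6 mean was higher in the knockdown without overlap, 0.227 to 0.267 against 0.174 to 0.201 points (difference 0.0613, exact permutation p = 0.057, the smallest possible, adjusted 0.0816). In ND5 it was 0.206 to 0.269 against 0.172 to 0.211 points (difference 0.0518, exact permutation p = 0.114, adjusted 0.143). Over the other 11 mRNAs together it was 0.262 to 0.291 against 0.181 to 0.222 points, without overlap as in ND6. The share of zeros was also larger on average in the knockdown, and its part in this was not tested. The other 11 mRNAs ran from 85.9% (ND3) to 119% (ATP8) of control, with a median of 109%. For none of the 13 mRNAs were the groups apart (0%).

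No tested position of ND5 or ND6 passed in the knockdown, by limma with Benjamini-Hochberg adjustment, where 0.671% of the 149 did. None had an unadjusted limma p under 0.05, where 13 of the 149 did. Position 14012 was higher by 0.36 points (SE 0.195, limma adjusted p = 0.499), 14504 by 0.64 points (SE 0.372, limma adjusted p = 0.499) and 13231 by 0.82 points (SE 0.542, limma adjusted p = 0.593). In each of these the knockdown libraries overlapped control. With positions taken by a mean of at least 0.5 points in the knockout and rescued libraries, 34 of 58 ND5 and 9 of 18 ND6 positions were higher, beside 347 of 767. The groups were apart, knockdown higher, at none of them, where 3.39% of the 767 were.

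Between NME6 knockout and RPUSD4 knockdown cells, neither gene mean differed beyond the spread. The knockout minus knockdown difference was 0.0124 points for ND5 (SE 0.0230, 95% interval -0.0389 to 0.0636, exact permutation p = 0.743, adjusted 0.929) and 0.0147 for ND6 (SE 0.0183, 95% interval -0.0260 to 0.0555, exact permutation p = 0.514, adjusted 0.735). The other 11 mRNAs ran from 85.6% (ATP6) to 108% (COX1) of the knockdown, with a median of 93.1%. None of the 8 tested positions passed by limma with Benjamini-Hochberg adjustment, where 3.36% of 149 did. None had an unadjusted limma p under 0.05, where 14 of the 149 did. Position 12418 had the lowest p, at 1.19 points (SE 0.588, limma adjusted p = 0.535), followed by 14012 at 0.28 (SE 0.195) and 12784 at 0.39 points (SE 0.283), both with a limma adjusted p of 0.573. All of these reached the level for testing only with the knockout libraries counted, so their differences are descriptions.

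Over the 14 libraries the ND5 mean followed that of ND4 most closely (Pearson r = 0.949), then CYTB (0.948) and TRNS2 (0.879), among the other 35 mitochondrial genes. The ND6 mean followed CYTB (0.916), COX2 (0.904) and ND4 (0.903), and ND5 and ND6 correlated with each other at 0.903. These values are descriptions. The points share library, group and depth, and the low libraries of control, knockout and rescued cells set much of their range. The pattern along each gene was shared between groups. Across positions, which are not independent, group means correlated at 0.674 to 0.789 in ND5 and 0.675 to 0.794 in ND6. Pairs of libraries within a group correlated at 0.353 to 0.749 in ND5 and 0.349 to 0.821 in ND6.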

How the data were processed

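The authors deposited, for each of 14 CMC libraries, 1 score per mitochondrial position, which the file header calls delta and gives without unit or read count, per the file headers. It was used as given. The submitters' processing notes name Trimmomatic, STAR, SAMtools, GRCh38 and hg38, without versions; the calling of altered reads is not described in the labels. Position numbers were assumed to be GRCh38 coordinates. Gene bounds came from RefSeq, which was matched for 37 mitochondrial genes. The planned comparison of uridines with other bases could not be made, as no mitochondrial sequence was used here.

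Single positions were tested in R 4.3.3 by limma 3.58.1 (empirical Bayes with a variance trend, all 14 libraries, group means) where the mean over libraries was at least 1 point, 149 in all, with two-sided p-values adjusted by Benjamini-Hochberg over these and a threshold of 0.05. The step was tested on simulated data. Gene means, 1 value per library, were compared by exact two-sided permutation (smallest p 0.057 for 4 against 3 libraries and 0.029 for 4 against 4), adjusted over 10 tests. With these smallest values no gene mean could pass 0.05 after the adjustment, in any of the 5 comparisons. ND5 and ND6 were compared within libraries by exact sign flips. Python 3.11.15, numpy 2.4.6, pandas 2.3.3, scipy 1.17.1 and matplotlib 3.10.9 were used. Precision rests on the number of libraries, since depth is unknown.

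The genes, lists and settings were chosen with earlier results of these data known. Named positions were the 10 highest of ND5 and 5 highest of ND6, any that passed, and the 3 of lowest p per comparison. Groups share replicate numbers. For NME6 knockout against control, deviations of same-numbered libraries correlated at 0.116 to 0.471 over the tested positions, so these were taken as pairs, from the data and not the labels. The value of 0.471 belonged to replicate 1, which stood apart in both groups. Other comparisons ranged from -0.425 to 0.0380, so values of similar size occurred with the opposite sign. The pairing is thus uncertain. Alternatives were other level filters (one on the groups not compared), no variance trend, only the 2 groups compared, library weights, scaling, the replicate block, other summaries of a gene and libraries left out.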

Additional observations from a re-analysis of the deposited data

Results flagged for a closer look

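Single libraries far from the other 3 of their group were sought in 38 sets of 4 libraries, by the gap to the nearest library over the range (Dixon's test), and 8 were found, where chance gives about 5%. Of the 8, 5 belong to control replicate 1 and 3 to NME6 knockout replicate 1. The ND5 mean was 0.0898 points in control replicate 1 (nearest 0.153) and 0.0987 in knockout replicate 1 (nearest 0.163). The ND6 mean was 0.108 points in control replicate 1 (nearest 0.162) and 0.123 in knockout replicate 1 (nearest 0.180). The share of positions at exactly 0 in control replicate 1 was 47.9% in ND5 (nearest 24.3%) and 38.1% in ND6 (nearest 16.0%). At single positions of ND6, 14191 read 0.529 points in knockout replicate 1 (nearest 1.59) and 14177 read 0.318 in control replicate 1 (nearest 0.741). These sets share libraries, so they are not 8 independent observations.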

How the results depend on the processing

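With no level filter 2236 positions of ND5 and ND6 were tested, among 14056 in all. Those of ND5 and ND6 that passed (limma, Benjamini-Hochberg) numbered 7 for RPUSD4 knockdown against control and 16 for NME6 knockout against control. They numbered 14 for rescued against knockout, 6 for rescued against control and 17 for knockout against knockdown. With the filter 0 passed in each. Over all 14056 positions 36, 71 and 148 passed in the first 3 of these comparisons. Positions with an identical score other than 0 in every library of a group were then left out, an alternative chosen after seeing the data. This made the numbers 3, 6, 6, 3 and 10 of 2175 positions. Over all 13628 positions 6, 23 and 83 then passed in the first 3 comparisons. Positions at 0 in every library of a group were kept. For rescued against knockout, 1 passed at a mean of at least 0.5 (7 of all 858) and 5 with library weights (28 of all 149). Without replicate 1 of control and knockout 4 passed (21 of all 175), and 0 to 2 when single libraries were left out. With weights 12784 passed for rescued against control (1 position). With the replicate block 0 passed in each of the 5 comparisons. The ND5 difference of knockdown and control turned to 0.0518 points over positions other than 0, 0.00124 after subtracting other positions and 0.00329 over same-numbered pairs (replicate block), and ranged from -0.0185 to 0.00847 when libraries were left out. That of ND6 turned to -0.000257 with extreme positions left out and -0.0107 without replicate 1 of control and NME6 knockout, and ranged from -0.0107 to 0.00985. The ND5 difference of knockout and control ranged from -0.00559 to 0.0279. ND5 minus ND6 no longer passed over positions other than 0 (-0.00273, exact sign-flip permutation p = 0.716) or as a share at 1 point or more (-0.169, exact sign-flip permutation p = 0.430), and ranged from -0.0224 to -0.0171 when libraries were left out. The causes were not tested. With positions chosen by the groups not compared, also added after seeing the data, 0 passed in each comparison. The other 591 alternative values kept direction and side of the threshold, and 8 at single positions passed in addition. For the gene means compared between groups the side could not change. With so few libraries no p adjusted over the 10 tests could fall below 0.05, and the lowest found was 0.0816 (exact permutation).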

Other observations

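Near the 5′ end of ND5, positions 12363 to 12365 (bases 27 to 29) carried negative scores in all 4 control libraries. Elsewhere 12363 and 12364 were at or near 0, while at 12365 all 3 rescued libraries were above 0 (mean 0.0486, range 0.0258 to 0.0938 points). These positions were singled out after their values were seen. The control libraries appear to share 1 untreated profile, so their negative scores are not 4 independent observations. At 12364 control averaged -0.112 ± 0.0185 points (SD, n = 4), and all libraries of NME6 knockout and RPUSD4 knockdown were listed at 0. At ND5 position 13578 (base 1242) RPUSD4 knockdown averaged 0.317 ± 0.0738 points (n = 3), while knockout libraries were listed at 0. Of the 4 control libraries 3 were also listed at 0 there, and the highest read 0.0491 points. The difference of knockdown from control was 0.305 points (SE 0.0304, limma with no level filter and identical scores other than 0 left out). Position 13578 was named because it passed in that setting. The listed zeros of control and knockout enter the SE, and whether reads covered them is unknown. The test therefore cannot decide whether the groups differ there. Such scores lie far below the level of 1 point used for the test, and the part of coverage in them was not tested.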
